A study of Sus scrofa with 9 samples.

Results

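Heat shock proteins and the cochaperones that work with them were followed in the left ventricle of the newborn pig over its first 2 weeks. Tissue came from wild type, untreated animals taken at birth (postnatal day 0), at 7 days and at 15 days. Each age has 3 libraries of the 9, called by their title numbers, which are 4, 5 and 6 for day 0, 2, 5 and 6 for day 7, and 1, 2 and 6 for day 15. The members were taken by gene symbol, as the HSP90A, HSPA, HSPB, HSPD, HSPE, HSPH, DNAJA, DNAJB, DNAJC and BAG families without the endoplasmic reticulum stress genes HSPA5 and DNAJB9. Of 65 genes so named, 57 reached 1 TPM (a transcript's share of the library, scaled to a fixed total) in at least 3 libraries and are the members, among 12268 genes that passed the same minimum. They comprise 1 HSP90A, 8 HSPA, 1 HSPH, 2 HSPD or HSPE, 8 HSPB (with 2 binding proteins, HSPBP1 and HSPBAP1, that the symbol brings in), 4 DNAJA, 8 DNAJB, 19 DNAJC and 6 BAG genes. Whether each library is a different animal is not stated. The p-values rest on the spread of these samples alone, and that spread may be technical.

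Chaperones bind unfolded or partly folded proteins and release them for another attempt at folding. The HSPA proteins (HSP70) do this with ATP, J-domain proteins (the DNAJ families) deliver clients to them and start ATP hydrolysis, and nucleotide exchange factors (HSPH1, HSPA4, HSPBP1 and the BAG proteins) end the cycle. HSP90 takes over part-folded kinases and receptors, HSP60 (HSPD1) with its lid HSP10 (HSPE1) folds proteins inside mitochondria, and the small HSPB proteins hold unfolding proteins without ATP. In heart muscle, small heat shock proteins and the BAG3 system are known for protecting and clearing the proteins of the contractile filaments, and heat shock factors switch many of these genes on under stress.

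TPM is a share of each library, so that read depth is unknown here, and values can be compared between genes per unit of length. Between 11290 and 12164 genes per library were at 1 TPM or more. One unnamed gene, ENSSSCG00000032277, took 24.0% to 46.0% of all TPM, most in day 15 replicate 1. The 9 cardiomyocyte markers measured summed to 50307 to 59363 TPM on day 0, 50370.3 to 56802 TPM on day 7 and 47356 to 58754 TPM on day 15, and 0 of 9 passed the test in any comparison of ages. Atrial markers summed to between 154 and 2968 TPM and were high in day 0 replicate 5 (2968 TPM) and day 7 replicate 5 (2334 TPM). Of the markers of other cell types, at day 7 relative to day 0, 2 of 8 fibroblast genes rose (COL3A1 and POSTN), 1 of 8 pericyte and smooth muscle genes rose (ABCC9) and 1 fell (ACTA2), and 1 of 8 leukocyte genes (CSF1R) and 1 of 4 erythroid genes (GYPC) rose. CKM, the 1 gene of the skeletal muscle list that reached the minimum, rose. FABP4, 1 of 2 genes of the adipocyte list that reached it, fell. MYH4, TNNT3, TNNI2, ACTN3 and MYLPF of the first list stayed below the minimum, as did ADIPOQ, PLIN1 and LEP of the second. Neither change is therefore read as a shift in skeletal muscle or fat. Of the atrial genes, 0 of 3 passed. Among all genes tested 7.67% rose and 8.88% fell in this comparison. The cell type markers were read beside these shares. Their part in the members' differences was not tested.

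Few of the members carried most of the signal. The 57 together summed to 5545, 5516 and 6539 TPM on day 0, 4329.7, 4309 and 3151 TPM on day 7 and 3344, 5007 and 3626 TPM on day 15, which was 0.315% to 0.654% of each library. On mean TPM over the 9 libraries, 9 members were at 100 TPM or more and held 80.3% of the members' TPM, 31 were between 10 and 100 TPM and 17 were under 10 TPM. The order began with the small heat shock protein HSPB1 (764 TPM), the cardiac small heat shock protein HSPB7 (696 TPM), the constitutive cytosolic HSP70 HSPA8 (673 TPM), HSPE1 (449 TPM) and HSP90AA1 (403 TPM). HSPA9, HSPB6, HSPD1 and HSPB8 followed, at 217, 197, 163 and 129 TPM. HSPB1, HSPB7 and HSPA8 exchanged places between ages and overlapped in TPM, so their order is not resolved beyond the spread of the libraries. The HSPB genes summed to 1867, 2279.7 and 2320.3 TPM on day 0, 2036, 1695 and 1202 TPM on day 7 and 1598, 2157 and 1441 TPM on day 15. The HSPA genes summed to 1438, 1198 and 1595 TPM on day 0, 696, 894 and 649.6 TPM on day 7 and 568, 869 and 708 TPM on day 15. The HSPA sums at day 7 and day 15 were all below those at day 0. The HSPB sums overlapped between ages.

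**Figure D1:**
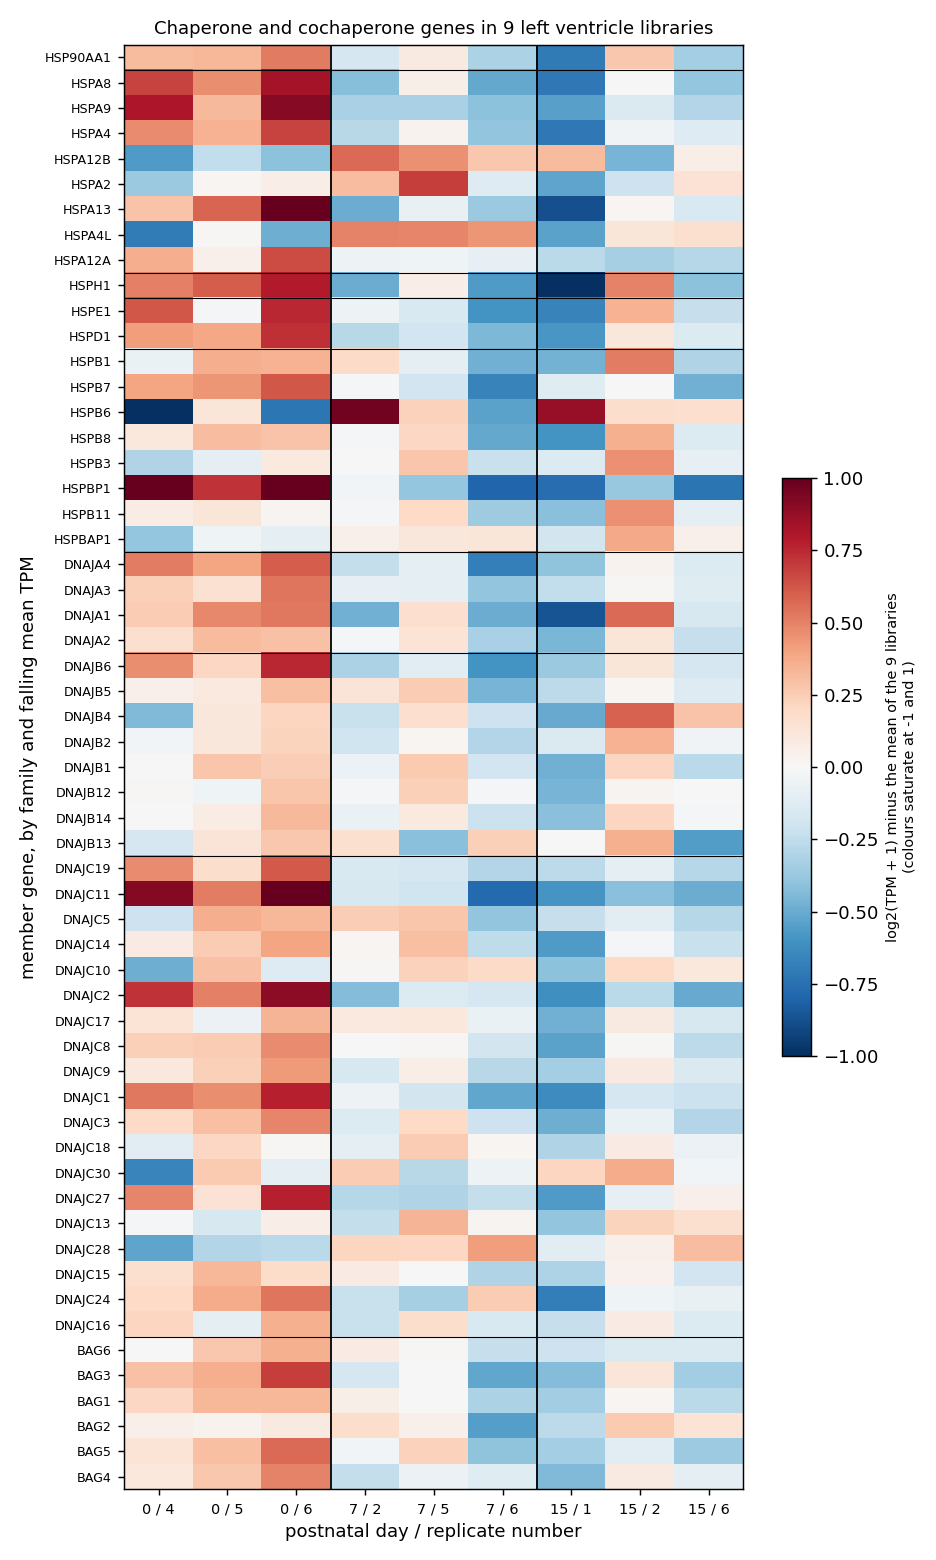
Each row is a member, grouped by family and ordered by falling mean TPM, and each column is a library, labelled by postnatal day and replicate number. Colour gives log2(TPM + 1) minus the member's mean over the 9 libraries, saturated at -1 and 1; most rows are red in the 3 day 0 libraries, HSPA12B and DNAJC28 are blue in all of these and HSPA4L in replicates 4 and 6, and day 15 replicate 1 is the bluest column of the older libraries.

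The first comparison asked what changed between birth and the end of the first week. In the day 7 libraries 15 of 57 members fell and 3 rose relative to day 0, at an adjusted p below 0.05 from limma on log2(TPM + 1), and 39 did not pass. The members that fell are 26.3% of the 57, where 8.88% of all 12268 genes tested fell, and the 3 that rose are 5.26%, where 7.67% of all genes rose. The median log2 fold change of the members was -0.34, beside -0.04 over all genes tested. Without overlap between libraries, 27 of 57 members were lower at day 7 than at day 0, where 23.8% of all genes were. Of the 57, 4 were higher, where 17.6% of all genes were. The 27 include HSPA12A, which passed the minimum only through the day 0 libraries. The median was below 0 under all 3 other scalings of the libraries too, at -0.27, -0.29 and -0.17. In bulk tissue, fewer cells of a type and less RNA per cell cannot be told apart. The number that fell was 4 without day 0 replicate 6, 5 without day 0 replicate 4, 4 without day 7 replicate 6 and 9 without day 7 replicate 2. Of all genes, 1.6%, 3.23%, 2.89% and 5.13% fell in these settings. The falls of HSPBP1, DNAJC11, HSPA9 and DNAJC2 passed in all 21 alternative settings, and the calls of the other 14 members were lost when day 0 replicate 6 was left out.

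**Figure D2:**
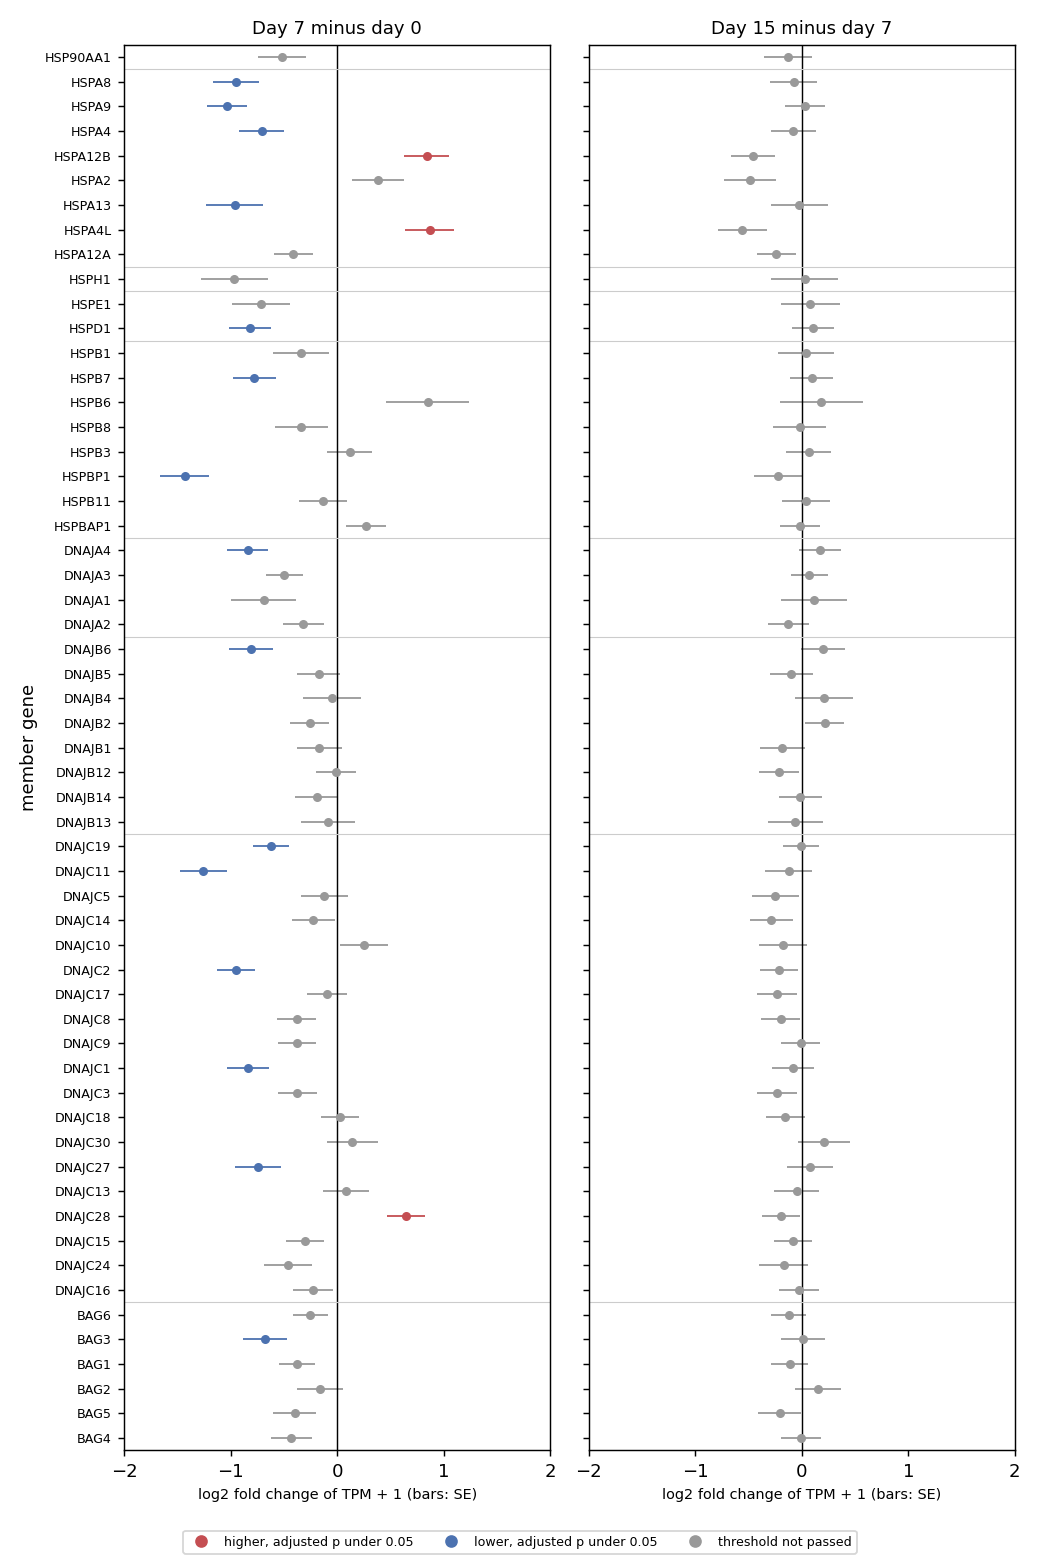
Log2 fold changes of TPM + 1 for each member, with the standard error as a bar, for day 7 minus day 0 (left) and day 15 minus day 7 (right). Blue points (15) fell and red points (3) rose at an adjusted p below 0.05 in the first week; in the second week every point is grey.

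Parts of the cytosolic HSP70 machine fell in the first week. HSPA8, which folds new proteins in unstressed cells, had 1009, 867 and 1122 TPM on day 0, 469, 657 and 441 TPM on day 7 and 384, 627 and 482 TPM on day 15. No day 7 or day 15 library reached the lowest day 0 library, and the 2 older ages overlapped. Its log2 fold change at day 7 was -0.95 ± 0.22 (SE, limma adjusted p = 0.0156). HSPA4, an exchange factor of the HSP110 kind, had 52.7, 48.1 and 60.7 TPM on day 0, 30.8, 38.6 and 28.4 TPM on day 7 and 22.5, 36.7 and 34.4 TPM on day 15, with a fold change of -0.71 on the log2 scale (limma adjusted p = 0.0385). HSPH1, the stress-inducible HSP110 protein, had 18.7, 20.04 and 23.0 TPM on day 0, 8.83, 13.5 and 8.35 TPM on day 7 and 5.92, 18.5 and 9.43 TPM on day 15. It was lower in every day 7 library than at day 0 but did not pass the test (-0.97 ± 0.31, limma adjusted p = 0.0541), and it passed in 10 of the 21 alternative settings. HSP90AA1, the stress-inducible cytosolic HSP90, had 485, 492 and 559 TPM on day 0, 347, 416 and 313 TPM on day 7 and 239, 471 and 307 TPM on day 15. Its day 7 and day 0 libraries did not overlap either, and the difference of -0.52 ± 0.23 did not pass (limma adjusted p = 0.131). HSPBP1, which releases nucleotide from HSP70 and can inhibit it, had 38.8, 31.4 and 49.1 TPM on day 0, 18.3, 14.0 and 10.4 TPM on day 7 and 10.6, 14.1 and 10.8 TPM on day 15. All 6 older libraries lay below every day 0 library, and its fall of -1.43 ± 0.23 (limma adjusted p = 0.00460) was the largest among the members. The calls of HSPA8 and HSPA4 were lost when day 0 replicate 4 or 6 or day 7 replicate 6 was left out, and that of HSPA4 also without day 7 replicate 2 or day 15 replicate 6.

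HSP70 relatives did not move as a group. Of the 8 HSPA members, 4 fell (HSPA4, HSPA8, HSPA9 and HSPA13), 2 rose (HSPA4L and HSPA12B) and 2 did not pass (HSPA2 and HSPA12A) at day 7. Among all genes tested 8.88% fell and 7.67% rose. HSPA13, a microsomal ATPase related to HSP70, had 3.67 ± 0.716 TPM on day 7 against 8.29 ± 2.66 TPM on day 0 (mean ± SD, n = 3 each here and below) and fell by 0.96 on the log2 scale (limma adjusted p = 0.0305). HSPA4L, a paralogue of HSPA4, had 1.35, 2.85 and 1.71 TPM on day 0, 4.37, 4.35 and 4.19 TPM on day 7 and 1.64, 3.14 and 3.27 TPM on day 15. Its day 7 libraries spanned 4.19 to 4.37 TPM, above all libraries of the other ages, and the log2 fold change at day 7 was 0.87 ± 0.23 (limma adjusted p = 0.0275). HSPA12B, a divergent HSP70 known from endothelial cells, had 7.30, 9.33 and 8.22 TPM on day 0, 17.2, 15.8 and 13.8 TPM on day 7 and 14.3, 7.88 and 11.9 TPM on day 15. Every day 7 library was above every day 0 library (0.84 ± 0.21, limma adjusted p = 0.0216), while day 15 replicate 2 lay within the day 0 range. Endothelial markers did not share 1 direction at day 7, with 2 of 8 risen (CDH5 and PECAM1), 1 fallen (EMCN) and 3 with a log2 fold change below 0. Their summed level was 322 to 352 TPM on day 7 against 224 to 263 TPM on day 0, and 202 to 242 TPM on day 15. PECAM1 averaged 141 TPM on day 7 and 88.9 TPM on day 0, and CDH5 63.7 and 32.9 TPM. The part of endothelial cells in the HSPA12B result was not tested. HSPA12A, the closest relative of HSPA12B, had 0.912 ± 0.0250 TPM on day 7 and 1.58 ± 0.535 TPM on day 0. It passed the minimum of 1 TPM only through the 3 day 0 libraries, so that it had to be higher there. HSPA2, known best from the testis, had 6.20 ± 1.13 TPM on day 0, 8.58 ± 2.68 TPM on day 7 and 5.78 ± 1.58 TPM on day 15 and its libraries overlapped. The rises of HSPA4L and HSPA12B were lost without day 0 replicate 4 or 6 or day 7 replicate 2 or 5, and that of HSPA4L also without day 7 replicate 6. The fall of HSPA13 was lost without day 0 replicate 6 or day 7 replicate 2 or 6.

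**Figure D3:**
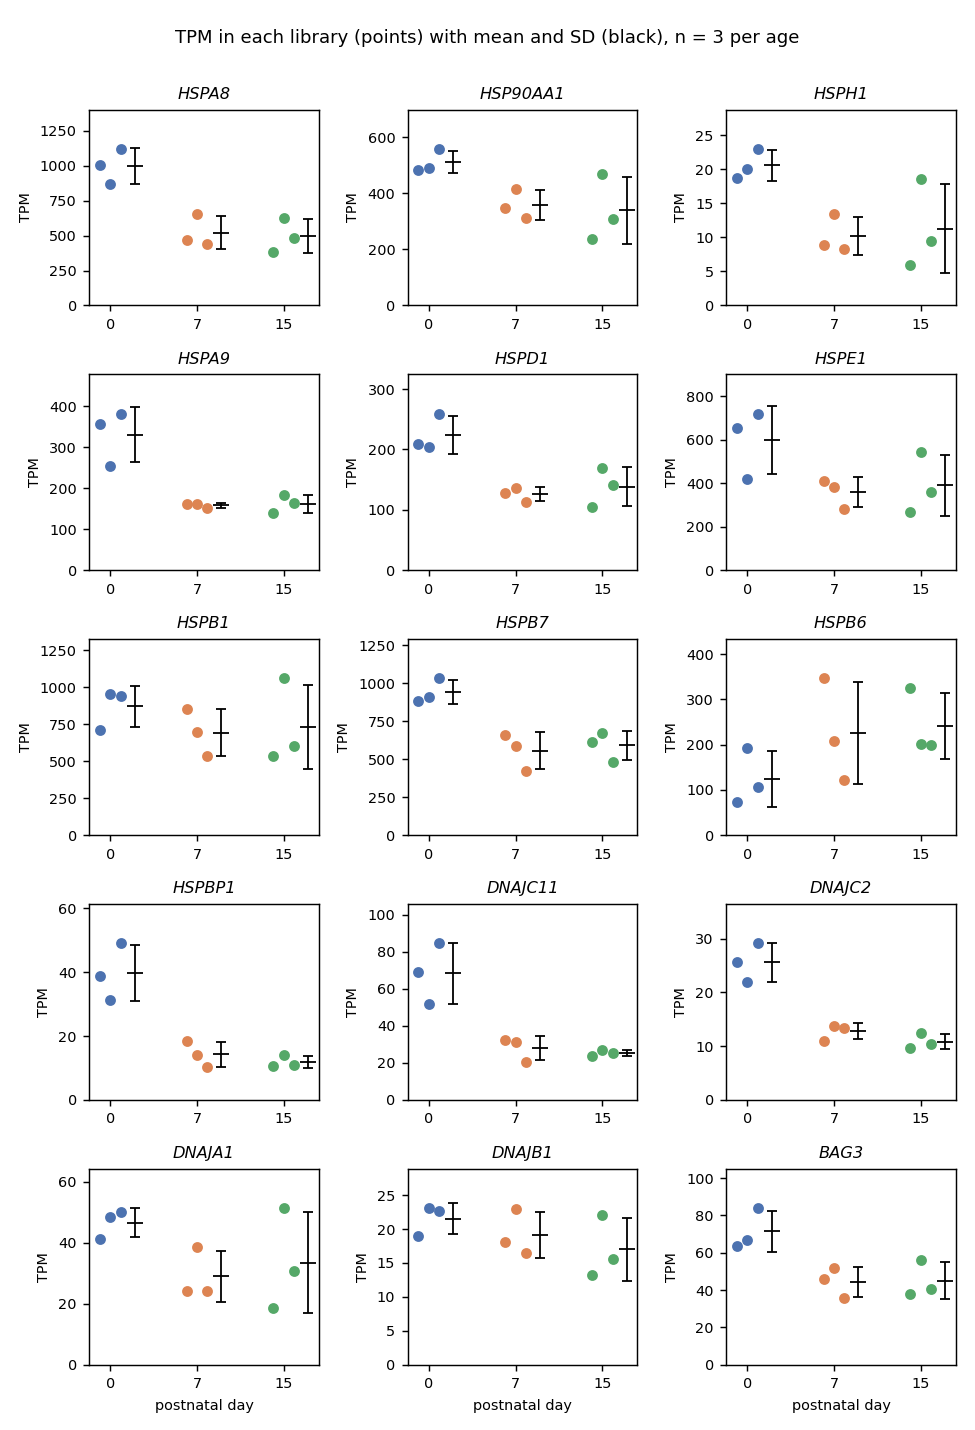
TPM of 15 members in each library (points, left to right by replicate number) with the mean and SD of the 3 libraries of an age (black), against postnatal day; the vertical axes start at 0 and differ between panels. HSPA9, HSPBP1, DNAJC11 and DNAJC2 sit lower in all 6 older libraries than at day 0, HSPB6 has its highest means at the older ages, with wide spread, and day 15 replicate 2 (middle point) is high for HSPH1, DNAJA1 and HSP90AA1.

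Some mitochondrial chaperones were among the members that fell in the first week. Of 8 members that work in mitochondria (a grouping made after values were seen), 4 fell at day 7 and 0 rose. Since the grouping followed the values, its counts are descriptions and test nothing. Among all genes tested 8.88% fell and 7.67% rose. In 7 of the 8 every day 7 library was below every day 0 library, where 23.8% of all genes were. DNAJC28, the J protein that rose, was not placed in this grouping, so the 0 that rose holds only for the grouping as drawn. HSPA9, the mitochondrial HSP70 that pulls proteins through the inner membrane, had 356, 255 and 382 TPM on day 0, 161, 162 and 152 TPM on day 7 and 139, 183 and 165 TPM on day 15. The day 7 libraries spanned only 152 to 162 TPM, below the lowest day 0 library, and its log2 fold change was -1.04 ± 0.19 (limma adjusted p = 0.00641). DNAJC11, an outer membrane protein tied to the cristae-organising complex, had 69.1, 51.7 and 84.7 TPM on day 0, 32.2, 31.3 and 20.5 TPM on day 7 and 23.6, 26.7 and 25.3 TPM on day 15. Its fold change at day 7 was -1.26 ± 0.22 on the log2 scale (limma adjusted p = 0.00580), with no overlap between day 0 and the older libraries. DNAJC19, a subunit of the import motor whose loss causes a dilated cardiomyopathy in humans, had 68.9, 55.9 and 76.1 TPM on day 0, 44.4, 43.9 and 40.1 TPM on day 7 and 41.1, 46.2 and 40.5 TPM on day 15 and fell by 0.62 (limma adjusted p = 0.0273). HSPD1 had 208, 204 and 259 TPM on day 0, 128, 136 and 114 TPM on day 7 and 104, 169 and 142 TPM on day 15, a difference of -0.82 ± 0.20 at day 7 (limma adjusted p = 0.0190). Its partner HSPE1 had 654, 419.9 and 720.2 TPM on day 0, 412, 382 and 281 TPM on day 7 and 267, 542 and 362 TPM on day 15. HSPE1 was lower in every day 7 library but spread widely at day 0 and did not pass (-0.72 ± 0.28, limma adjusted p = 0.0907). DNAJA3, a mitochondrial J protein needed for heart function in mice, had 36.2 ± 4.44 TPM on day 7 and 51.6 ± 7.48 TPM on day 0 and did not pass (-0.50, limma adjusted p = 0.0673). DNAJC15, a relative of DNAJC19 at the inner membrane, had 2.55 ± 0.475 TPM on day 7 and 3.34 ± 0.291 TPM on day 0. DNAJC30 had 4.98 ± 1.12 TPM on day 7 and 4.54 ± 1.70 TPM on day 0 and, like DNAJC15, did not pass. The call of HSPD1 was lost without day 0 replicate 4 or 6 or day 7 replicate 6, and that of DNAJC19 without any 1 of these or of the other 2 day 7 libraries.

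Small heat shock proteins split between 1 that fell and several with no passing difference. Among the 8 HSPB members HSPB7 and HSPBP1 fell at day 7, 0 rose and 6 did not pass. The fallen are 25% of the 8, beside 8.88% of all genes, and 7.67% of all genes rose. HSPB7, needed in heart muscle to keep filamin and thin filaments in order, had 881, 911 and 1031 TPM on day 0, 661, 587 and 421 TPM on day 7 and 615, 673 and 481 TPM on day 15. All older libraries were below day 0, and its log2 fold change at day 7 was -0.78 ± 0.20 (limma adjusted p = 0.0241). This call was lost without day 0 replicate 4 or 6 or day 7 replicate 6. HSPB1 (HSP27), an actin-binding chaperone, had 709, 954 and 943 TPM on day 0, 849.8, 697 and 531 TPM on day 7 and 535, 1058 and 603 TPM on day 15. Its libraries overlapped at all ages (-0.34 at day 7, limma adjusted p = 0.380). HSPB6 (HSP20), a target of protein kinase A in heart, had 72.6, 192 and 107 TPM on day 0, 347, 208 and 122 TPM on day 7 and 324, 200.5 and 199 TPM on day 15. Its values were high in day 7 replicate 2 and day 15 replicate 1 and low in day 0 replicates 4 and 6, the day 7 and day 0 ranges overlapped, and the difference of 0.85 ± 0.39 did not pass (limma adjusted p = 0.148). HSPB8, which forms a complex with BAG3, had 149 ± 11.4 TPM on day 0, 119.8 ± 29.4 TPM on day 7 and 119.9 ± 39.6 TPM on day 15. The muscle protein HSPB3 had 23.1 ± 3.30 TPM on day 0, 25.2 ± 4.63 TPM on day 7 and 26.6 ± 6.61 TPM on day 15. The libraries of both overlapped. HSPB11, a protein of intraflagellar transport that carries the family name, had 9.49 ± 0.342 TPM on day 0, 8.67 ± 1.82 TPM on day 7 and 9.13 ± 3.19 TPM on day 15. HSPBAP1, which binds HSPB1, was near the minimum, with every day 7 library above day 0, at 1.22 ± 0.277 TPM on day 0, 1.67 ± 0.0682 TPM on day 7 and 1.67 ± 0.529 TPM on day 15.

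J proteins made up 31 of the members, of which 7 fell and 1 rose at day 7. These are 22.6% and 3.23% of the 31, beside 8.88% and 7.67% of all genes. Among the 4 DNAJA genes, which act with cytosolic or mitochondrial HSP70, DNAJA4 fell, to 34.8, 38.7 and 25.3 TPM on day 7 against 59.1, 54.5 and 63.4 TPM on day 0 (-0.84 ± 0.19, limma adjusted p = 0.0158). DNAJA1, the major farnesylated partner of HSPA8, had 41.2, 48.5 and 50.1 TPM on day 0, 24.3, 38.8 and 24.1 TPM on day 7 and 18.4, 51.5 and 30.6 TPM on day 15. It was lower in every day 7 library, but with a spread at day 7 and day 15 that left the difference of -0.69 ± 0.31 short of the threshold (limma adjusted p = 0.135). DNAJA2 had 32.1 ± 5.21 TPM on day 7 and 40.0 ± 2.33 TPM on day 0. Of the 8 DNAJB genes, DNAJB6 alone fell at day 7, which is 12.5% beside 8.88% of all genes. DNAJB6, which holds back protein aggregation and is mutated in a muscular dystrophy, had 57.1, 47.6 and 69.6 TPM on day 0, 32.8, 38.1 and 26.8 TPM on day 7 and 31.4, 44.7 and 36.3 TPM on day 15 (-0.81 ± 0.21 at day 7, limma adjusted p = 0.0219). DNAJB1, the stress-inducible HSP40, had 19.0, 23.1 and 22.6 TPM on day 0, 18.1, 23.0 and 16.5 TPM on day 7 and 13.3, 22.1 and 15.6 TPM on day 15, so that its libraries overlapped between all ages. DNAJB4, DNAJB5 and DNAJB2 overlapped between day 7 and day 0, with 21.8 ± 3.62, 37.9 ± 9.54 and 18.9 ± 2.26 TPM on day 7 and 22.9 ± 5.39, 42.0 ± 3.99 and 22.7 ± 2.08 TPM on day 0. DNAJB5 was lower in every day 15 library than in every day 0 library and did not pass there (-0.27, limma adjusted p = 0.337). The other 3 DNAJB genes (DNAJB12, DNAJB13 and DNAJB14) had log2 fold changes between -0.19 (DNAJB14) and -0.02 (DNAJB12), and DNAJB13, known from sperm flagella, reached 1 TPM in 4 libraries only. The falls of DNAJA4 and DNAJB6 were lost without day 0 replicate 4 or 6 or day 7 replicate 6, and that of DNAJB6 also without day 7 replicate 2.

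Of the 19 DNAJC genes, 5 fell, 1 rose and 13 did not pass at day 7. The fallen are 26.3% and the risen 5.26%, beside 8.88% and 7.67% of all genes. DNAJC2, a J protein of the ribosome that acts on new polypeptide chains, had 25.7, 22.0 and 29.1 TPM on day 0, 11.01, 13.7 and 13.4 TPM on day 7 and 9.61, 12.4 and 10.4 TPM on day 15. The highest of the older libraries, at 13.7 TPM, was below the lowest day 0 library at 22.0 TPM, and its log2 fold change was -0.95 ± 0.18 (limma adjusted p = 0.00755). DNAJC1, a J protein of the endoplasmic reticulum membrane, had 16.7, 16.0 and 19.98 TPM on day 0, 10.9, 9.81 and 7.54 TPM on day 7 and 6.93, 9.92 and 9.59 TPM on day 15 (-0.84 ± 0.20 at day 7, limma adjusted p = 0.0162). DNAJC27, a small GTPase with a J domain, had 3.63 ± 0.111 TPM on day 7 and 6.88 ± 1.70 TPM on day 0 and fell by 0.74 on the log2 scale (limma adjusted p = 0.0347). DNAJC28 was the one riser, with 1.78, 2.26 and 2.31 TPM on day 0, 3.64, 3.62 and 4.34 TPM on day 7 and 2.70, 3.15 and 3.94 TPM on day 15 (0.65 ± 0.18, limma adjusted p = 0.0301). Its day 7 libraries were above every day 0 library. DNAJC5, the cysteine string protein of secretory vesicles, had 30.2 ± 7.57 TPM on day 7 and 32.8 ± 6.97 TPM on day 0. DNAJC3 and DNAJC10, which work in the lumen of the endoplasmic reticulum, had 9.94 ± 1.70 and 23.3 ± 1.91 TPM on day 7 and 13.1 ± 1.47 and 19.8 ± 5.66 TPM on day 0, and neither passed. The splicing-associated DNAJC8 and DNAJC17 and the histone chaperone DNAJC9 had log2 fold changes of -0.38, -0.09 and -0.38 that did not pass. The endosomal DNAJC13, DNAJC14, DNAJC16, DNAJC18 and the diphthamide synthesis protein DNAJC24 did not pass either, at 0.08, -0.22, -0.23, 0.03 and -0.47. The calls of DNAJC1, DNAJC27 and DNAJC28 were lost without day 0 replicate 4 or 6 or day 7 replicate 6, and those of DNAJC27 and DNAJC28 also without either other day 7 library.

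Among the 6 BAG genes, BAG3 fell at day 7 and 5 did not pass. The 1 that fell is 16.7% of the 6, beside 8.88% of all genes. BAG3, which links HSP70 and HSPB8 to autophagy and is mutated in dilated cardiomyopathy, had 63.5, 66.97 and 84.0 TPM on day 0, 45.8, 51.8 and 35.8 TPM on day 7 and 38.1, 56.3 and 40.6 TPM on day 15. Every day 7 and day 15 library was below every day 0 library, and the log2 fold change at day 7 was -0.68 ± 0.21 (limma adjusted p = 0.0435), a call that was lost in 8 settings, among them without any 1 of the 3 day 0 libraries, without day 7 replicate 2 or 6 and without day 15 replicate 6. BAG6, which handles mislocalised membrane proteins, had 68.3 ± 8.67 TPM on day 0, 57.1 ± 6.40 TPM on day 7 and 52.2 ± 1.39 TPM on day 15. It was the most abundant of the 6 on its mean over the 9 libraries, and BAG3 was above it at day 0. BAG1, an exchange factor that also binds the proteasome, had 36.2 ± 1.81 TPM on day 0, 27.8 ± 3.88 TPM on day 7 and 25.6 ± 3.63 TPM on day 15 and was lower in every day 7 library than at day 0 (-0.38, limma adjusted p = 0.146). BAG2, an inhibitor of the ubiquitin ligase CHIP, had 11.55 ± 3.12 TPM on day 7 and 12.8 ± 0.248 TPM on day 0. BAG4 and BAG5 had log2 fold changes of -0.43 and -0.40 that did not pass.

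Between day 15 and day 7, in the second week, no member passed in either direction. Of the 57, 0 rose and 0 fell by limma, where 0.0408% of all genes tested rose and 0.13% fell. An unadjusted limma p under 0.05 was found for 1 member, beside 1565 of all 12268 genes. The smallest adjusted p was 0.351, of HSPA4L (-0.56 ± 0.23, with 1.64, 3.14 and 3.27 TPM on day 15 and 4.37, 4.35 and 4.19 TPM on day 7). The members' median log2 fold change was -0.06, beside -0.15 over all genes, and it was 0.10, 0.07 and 0.00 under the other scalings, so that its sign depended on the scaling. Without overlap, 2 of 57 members (HSPA4L and HSPA12A) were lower at day 15 than at day 7, where 17.9% of all genes were. Of the 57, 0 were higher, where 1.46% of all genes were. The difference between the 2 weekly changes was tested itself, and 0 members passed in either direction by limma, where 1.53% of all genes had a higher and 0.391% a lower first-week change. There, 14 members had an unadjusted limma p under 0.05, as had 2201 of all 12268 genes. The smallest adjusted p were those of HSPA12B (1.30 ± 0.37, limma adjusted p = 0.0926) and HSPA4L (1.43 ± 0.40, limma adjusted p = 0.0935). Median-of-ratios scaling gave 4 members with a lower first-week change, where 2.28% of all genes had one.

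Between day 15 and day 0, over the 2 weeks together, 20 of 57 members fell (35.1%), 0 rose and 37 did not pass. The 20 include HSPA12A, which passed the minimum only through the day 0 libraries, so that it had to be higher there. Among all genes tested 18.4% fell and 5.53% rose. The members' median log2 fold change was -0.43, beside -0.19 over all genes. Scaling moved this comparison, with an all-gene median of 0.01, -0.04 and 0.02 under median-of-ratios, quantile and rescaled values, a member median of -0.20, -0.21 and -0.20 there, and 15, 18 and 18 members fallen with 3 risen in each. Over all genes, these scalings gave 15.6%, 13.3% and 14.5% risen and 15.4%, 17.4% and 14.4% fallen. Without overlap, 31 of 57 members, HSPA12A among them, were lower at day 15, where 30.5% of all genes were. Of the 57, 2 were higher, where 9.45% of all genes were. The number that fell was 7 without day 0 replicate 4, 5 without day 0 replicate 6 and 8 without day 15 replicate 1 or without day 15 replicate 6. Of all genes, 12.5%, 5.04%, 10.8% and 8.32% fell in these settings.

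HSPBP1, DNAJC2 and DNAJC11 had the smallest adjusted p over the 2 weeks, with log2 fold changes of -1.65 ± 0.23, -1.17 ± 0.18 and -1.38 ± 0.22 (limma adjusted p = 0.00146, 0.00217 and 0.00244), and passed in all 21 settings. HSPA9 (-1.01) and DNAJC1 (-0.93) also fell, and lost the call only with the replicate number as a block. HSPA8 fell by 1.03 (limma adjusted p = 0.00813), a call lost without day 0 replicate 6 and with the block. Among the other members that fell, HSPD1, HSPB7, BAG3, DNAJA4, HSPA4, HSPA13 and DNAJC19 had log2 fold changes of -0.71, -0.68, -0.67, -0.67, -0.79, -0.99 and -0.63, and each lost its call without day 0 replicate 6. DNAJB6 (-0.62), DNAJC27 (-0.67), BAG5 (-0.60) and DNAJC8 (-0.58) lost theirs in 10 or more settings. BAG5, DNAJC3, DNAJC8, HSPA12A and HSPH1 passed here and not at day 7; both comparisons use the same day 0 libraries, and HSPA12A is subject to the minimum named above. Of these, HSPH1 fell by 0.94 (limma adjusted p = 0.0478) with day 15 replicate 2, at 18.5 TPM, close to day 0, and lost its call in 14 of 21 settings, among them without any 1 of the day 0 libraries, without day 7 replicate 2 or 6 and without day 15 replicate 1 or 6. DNAJC3, the lumenal cochaperone P58IPK, had 7.00, 9.71 and 8.15 TPM on day 15 against 11.8, 12.8 and 14.7 TPM on day 0 (-0.61 ± 0.19, limma adjusted p = 0.0329), a call lost in 8 settings, among them without any 1 of the day 0 libraries and without day 15 replicate 1 or 6. HSP90AA1 had a difference of -0.65 ± 0.23 that did not pass (limma adjusted p = 0.0573) and passed in 4 settings. HSPB6 stood on the other side of 0, with every day 15 library above every day 0 library and a log2 fold change of 1.03 ± 0.39 that did not pass (limma adjusted p = 0.0720), and it passed as a rise in 7 settings. DNAJC28 and HSPB3, at 0.45 and 0.18 here, passed as rises under each of the 3 other scalings.

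Pairs of related members were compared within each library, since a ratio does not depend on how a library is scaled. The pairs were picked after values were seen, and the ratios are given as descriptions with no test. HSPA4L over HSPA4 was 0.0256, 0.0591 and 0.0282 at day 0, 0.142, 0.112 and 0.147 at day 7 and 0.0726, 0.0856 and 0.0952 at day 15. All day 7 and day 15 libraries were above all day 0 libraries, and those of day 7 were the highest. HSPA12B over HSPA12A was 4.69, 8.77 and 3.86 at day 0, 18.7, 17.0 and 15.6 at day 7 and 22.0, 13.7 and 18.8 at day 15. HSPA12A passed the minimum only through the day 0 libraries, so that a low ratio there follows from the filter and nothing is read from it. HSPB6 over HSPB7 averaged 0.132 ± 0.0688 at day 0, 0.389 ± 0.121 at day 7 and 0.413 ± 0.114 at day 15, and no older library fell into the day 0 range. By contrast HSPE1 over HSPD1, the lid and the barrel of the mitochondrial chaperonin, averaged 2.66 ± 0.550 at day 0, 2.83 ± 0.367 at day 7 and 2.78 ± 0.379 at day 15. HSPA9 over HSPA8 averaged 0.329 ± 0.0312 at day 0, 0.312 ± 0.0568 at day 7 and 0.332 ± 0.0362 at day 15. HSP90AA1 over its constitutive paralogue HSP90AB1 averaged 1.48 ± 0.0371 at day 0, 1.55 ± 0.167 at day 7 and 1.41 ± 0.0359 at day 15. Libraries of the 3 ages overlapped in the first 2 of these ratios. HSP90AA1 over HSP90AB1 was lower in every day 15 library than in every day 0 library and overlapped between day 7 and both other ages. In RefSeq's pig genome, Sscrofa11.1, HSPD1 and HSPE1 are neighbouring genes. DNAJC11 over DNAJC19 averaged 1.01 ± 0.0943 at day 0, 0.649 ± 0.120 at day 7 and 0.592 ± 0.0276 at day 15, with every older library below day 0.

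**Figure D4:**
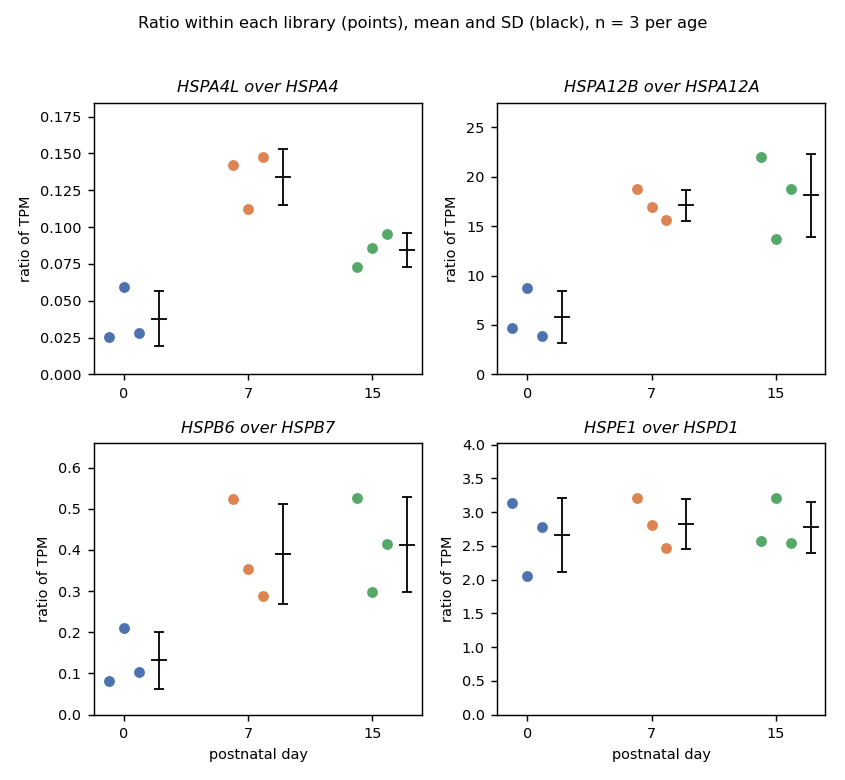
TPM ratio of 4 pairs of members within each library (points) with the mean and SD of the 3 libraries of an age (black), against postnatal day; the vertical axes start at 0. The ratios HSPA4L over HSPA4 and HSPB6 over HSPB7 are lower in the 3 day 0 libraries than in all older ones. HSPA12B over HSPA12A is too, but the filter on low values fixes that direction, and HSPE1 over HSPD1 overlaps between ages.

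Genes outside the membership rule were followed through 8 lists, of chaperones and their partners, of HSF regulators and of immediate early genes. Over these lists 20 of 77 genes fell and 1 rose at day 7, where 8.88% of all genes fell and 7.67% rose, and 24 fell and 0 rose at day 15 relative to day 0, where 18.4% of all genes fell and 5.53% rose. Immediate early genes gave 4 of the 20 that fell (ATF3, EGR1, FOS and MYC) and the 1 that rose (KLF6). At day 15 relative to day 7, 0 passed by limma. The 20 became 2 without day 0 replicate 6, 7 without day 0 replicate 4, 10, 12 and 6 without day 7 replicate 2, 5 and 6, and 11 without day 15 replicate 6. Of all genes, 1.6%, 3.23%, 5.13%, 6.24%, 2.89% and 6.42% fell in these settings. The 24 became 7 without day 0 replicate 6 and 14 without day 15 replicate 6, where 5.04% and 8.32% of all genes fell. Median-of-ratios scaling gave 33 fallen and 4 risen at day 7, where 15.3% of all genes fell and 15.6% rose. It gave 24 fallen and 8 risen at day 15 relative to day 0, where 15.4% of all genes fell and 15.6% rose. Of 22 HSP90 cochaperones, 7 fell and 0 rose at day 7, with a median of -0.50, and 9 fell at day 15 relative to day 0. The 7 became 1 without day 0 replicate 6. TTC4, an HSP90-binding protein, had 46.5, 27.1 and 55.5 TPM on day 0, 14.8, 15.0 and 13.6 TPM on day 7 and 13.6, 14.7 and 15.1 TPM on day 15 (-1.45 ± 0.23 at day 7, limma adjusted p = 0.00434). FKBP4, the steroid receptor immunophilin FKBP52, had 109.6 ± 14.0 TPM on day 7 and 236 ± 42.5 TPM on day 0 (-1.09 ± 0.21, limma adjusted p = 0.00847). STIP1 (HOP), which passes clients from HSP70 to HSP90, had 122.8, 114 and 147 TPM on day 0, 61.4, 71.7 and 54.0 TPM on day 7 and 45.6, 84.8 and 56.5 TPM on day 15 (-1.03 ± 0.22 at day 7, limma adjusted p = 0.0128). NUDC fell by 0.77 at day 7. Named after values were seen, the myosin chaperone UNC45B and the myosin methylase SMYD1, both of striated muscle, did not pass, at -0.47 and 0.34.

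Of the 7 measured subunits of CCT, the cytosolic chaperonin that folds actin and tubulin, 5 fell and 0 rose at day 7 (median -0.63), and 6 fell at day 15 relative to day 0 (median -0.82). Among all genes tested 8.88% and 18.4% fell in these comparisons. TCP1 had 103, 91.1 and 115 TPM on day 0, 59.7, 62.8 and 48.9 TPM on day 7 and 41.3, 59.8 and 48.6 TPM on day 15 (-0.84 ± 0.19 at day 7, limma adjusted p = 0.0136). CCT3, CCT4 and CCT8 had day 7 fold changes of -0.67, -0.68 and -0.59. The day 7 count of CCT subunits was 0 without day 0 replicate 4, 0 without day 0 replicate 6, 1 without any 1 of the day 7 libraries and 1 without day 15 replicate 6. The count at day 15 relative to day 0 was 1 without day 0 replicate 6 and 3 without day 15 replicate 6. Of 5 prefoldin genes, which hand chains to CCT, PFDN2 fell at day 7, to 20.6, 22.9 and 16.1 TPM against 45.6, 36.4 and 50.7 TPM on day 0 (-1.12 ± 0.21, limma adjusted p = 0.00730). Among 10 partners of the mitochondrial chaperones 2 fell at day 7, the import components TIMM44 (-0.58) and TIMM50 (-0.64). This number was 0 to 2 over the 21 alternative settings, where 1.57% to 16.1% of all genes fell. The proteases LONP1 and CLPP, at -0.09 and 0.52, did not pass. Of 10 HSP70 cochaperones outside the rule only HYOU1, of the endoplasmic reticulum, fell at day 7 (-0.66, limma adjusted p = 0.0457). Over the 21 alternative settings 0 to 4 of this list fell, where 1.57% to 16.1% of all genes fell. The ubiquitin ligase STUB1 (CHIP) had 48.0 ± 7.25 TPM on day 7 and 43.2 ± 3.67 TPM on day 0.

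The heat shock transcription factors and early stress genes were examined beside them. HSF1, the main activator of heat shock genes, had 34.3, 38.8 and 48.6 TPM on day 0, 32.6, 30.5 and 22.0 TPM on day 7 and 23.5, 32.1 and 26.5 TPM on day 15, a difference of -0.51 ± 0.21 at day 7 that did not pass (limma adjusted p = 0.105). HSF2 fell at day 15 relative to day 0, to 4.49, 9.97 and 7.84 TPM against 11.3, 11.2 and 14.7 TPM (-0.72 ± 0.24, limma adjusted p = 0.0472). Over the 21 alternative settings 0 to 2 HSF regulators fell there, where 4.26% to 30% of all genes fell. None of the 5 HSF regulators passed at day 7. Of 12 immediate early genes, which tissue handling as well as signalling can switch on, 4 fell and 1 rose at day 7. MYC had 10.4 ± 1.95 TPM on day 7 and 27.0 ± 7.89 TPM on day 0 (-1.27 ± 0.25). FOS had 1.70 ± 0.915 TPM on day 7 and 4.21 ± 0.434 TPM on day 0 (limma adjusted p = 0.0256). EGR1 had 5.91 ± 1.79 TPM on day 7 and 11.3 ± 2.09 TPM on day 0 (-0.85 ± 0.22), and KLF6 had 38.0 ± 9.31 TPM on day 7 and 20.4 ± 3.83 TPM on day 0 (0.85 ± 0.24). The list summed to 176 to 268 TPM on day 7 and 212 to 335 TPM on day 0, and was highest in day 0 replicate 6. There 42 of 57 members also had the highest value of the 3 day 0 libraries (61.2% of all genes did). After median-of-ratios scaling 15 of 57 members were highest in that library (26.7% of all genes). The part of tissue handling in the members' differences was not tested. CRYAB, a small heat shock protein of heart and lens that its symbol keeps out of the members, had 1040.3, 1274 and 1139 TPM on day 0, 1251, 1177 and 658 TPM on day 7 and 940.5, 1798 and 844 TPM on day 15, and its libraries overlapped at all ages. It was listed with the filament proteins DES, FLNC and SYNPO2, the autophagy receptor SQSTM1 and the collagen chaperone SERPINH1, and 0 of these 6 passed by limma in any comparison of ages.

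Some genes of these families were listed under an Ensembl pig identifier and so were outside the membership rule. A table of gene names gave 6 such genes a symbol of these families. Of the 6, 2 fell at day 7 and 4 at day 15 relative to day 0, where 8.88% and 18.4% of all genes fell. How these calls depend on single libraries is not given here. HSPA14, a ribosome-bound HSP70 that works with DNAJC2, had 23.0, 18.0 and 24.9 TPM on day 0, 8.51, 9.32 and 8.02 TPM on day 7 and 6.95, 8.90 and 7.08 TPM on day 15 (-1.25 ± 0.18 at day 7, limma adjusted p = 0.00297). The lowest day 0 library was above every older one. DNAJC7, a J protein that binds HSP70 and HSP90, had 80.6, 67.2 and 90.4 TPM on day 0, 35.4, 44.9 and 31.9 TPM on day 7 and 32.7, 40.0 and 34.4 TPM on day 15 (-1.07 ± 0.19, limma adjusted p = 0.00573). HSP90AB1, the constitutive cytosolic HSP90, had 330.5, 323 and 384 TPM on day 0, 202, 268 and 226 TPM on day 7 and 174, 326 and 219 TPM on day 15, and its difference at day 7 did not pass (-0.58 ± 0.22, limma adjusted p = 0.0906). DNAJC25 and DNAJC4 had log2 fold changes of -0.74 and -0.36 at day 15 relative to day 0, and DNAJC25 passed. DNAJB11, a J protein of the endoplasmic reticulum lumen, had 13.6, 23.5 and 14.1 TPM on day 15 against 26.3, 30.7 and 29.3 TPM on day 0 and fell as well (-0.76 ± 0.23, limma adjusted p = 0.0347). Inducible HSP70 genes were not analysed here. The 8 genes named by the rule that stayed below the minimum were DNAJB7, DNAJB8, DNAJC5B, DNAJC6, DNAJC12, DNAJC22, HSPA1L and HSPB9. DNAJB8 and HSPB9 were listed at 0 in every library, and the highest value among the others was 0.924 TPM, of DNAJC22 in day 0 replicate 5.

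Libraries of 1 age differed among themselves, by a median of 1.31-fold between highest and lowest over the members at day 0, 1.42-fold at day 7 and 1.51-fold at day 15. Replicate 2 had the highest value of the 3 day 15 libraries for 50 of 57 members (73.1% of all genes tested) and replicate 1 the lowest for 48 (74.4% of all genes). After median-of-ratios scaling these numbers were 25 and 25. HSPH1 differed 3.13-fold and DNAJA1 2.79-fold between the highest and the lowest day 15 library. After scaling these were 2.23-fold and 1.99-fold. The median of all genes was 1.49-fold, and 1.31-fold after scaling. HSP90AA1 showed the same order of libraries, at 239, 471 and 307 TPM in day 15 replicates 1, 2 and 6. Macrophage and leukocyte markers summed to 24.7, 77.9 and 35.8 TPM in these 3 libraries. Their part in the order was not tested.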

How the data were processed

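RNA from flash-frozen pig left ventricle was made into libraries with a stranded mRNA kit, per the labels' protocols. The authors deposited 1 table of TPM for 22629 rows and 9 libraries (0 columns of other samples), without read counts, so depth is unknown and no counting interval is given. Per the submitters' processing notes the tools were kallisto 0.43.1, HISAT2 2.0.5 and Trimmomatic 0.33, with no roles listed. Genome build, annotation and strand setting: not given in the sources used here. How reads shared by close paralogues were assigned is not given either, which makes family members with near-identical copies less certain.

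From the deposited TPM, genes at 1 TPM or more in at least 3 libraries (12268) were taken to log2(TPM + 1), which understates the change of low genes. limma 3.58.1 in R 4.3.3 fitted 1 mean per age to all 9 libraries (trended empirical Bayes, leaving 6 residual degrees of freedom), with Benjamini-Hochberg adjustment over all genes tested and a threshold of 0.05. Adjusted p-values throughout are from this fit. An exact permutation of 3 against 3 libraries cannot go below 0.10 and was not used. The fit was tested on simulated data. The members, the 18 lists of related genes and cell type markers and the rule for naming genes were chosen with earlier results of these data known. By that rule, members past the threshold (up to 15 per direction and comparison), the 3 most abundant of each family, a fixed set of symbols and up to 4 genes of each related list with the most abundant one were named; further members are given by value to account for all 57. Alternatives changed the scaling (median-of-ratios, quantile, or TPM rescaled after removal of mitochondrially encoded genes and the top 20), the pseudocount (0.1 or 5), the filter (none, or 5 TPM on average), the variance model (untrended, robust, or with library weights) and the libraries fitted (only the ages compared, a replicate block, or each library left out). A description of promoter sequences was not made. All 57 members matched RefSeq's gene table of Sscrofa11.1, used for names and neighbours only.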

Additional observations from a re-analysis of the deposited data

How the results depend on the processing

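Members passed as fallen in 15 cases at day 7 relative to day 0. This number was 5 with no filter, 23 with quantile normalization, 8 with the replicate block and 4 to 16 with 1 library left out. Of all genes, 8.88% fell in the main fit, and 1.57%, 16.1%, 4.34% and 1.6% to 12% in these settings. The 3 that rose became 0 with no filter, 1 at a mean of at least 5 TPM, 0 with the block and 0 to 4 with 1 library left out. Of all genes, 7.67% rose in the main fit, and 1.13%, 7.18%, 2.65% and 1.6% to 10.3% in these settings. Over all genes, the day 7 split of 941 risen and 1090 fallen became 2328 and 1252 with rescaled values. At day 15 relative to day 0 the 20 that fell became 8 with no filter, 3 with the block and 5 to 27 with 1 library left out. Of all genes, 18.4% fell in the main fit, and 6.29%, 4.26% and 5.04% to 23% in these settings. The 0 that rose became 3 under each of the 3 other scalings, 4 with library weights, 1 on the 2 ages alone and 0 to 1 with 1 library left out. Of all genes, 15.6%, 13.3% and 14.5% rose under the scalings, 13% with weights, 4.92% on the 2 ages and 1.61% to 7.9% with 1 library left out. For the difference between the weekly changes, 4, 2 and 4 members had a lower first-week change under median-of-ratios, quantile and rescaled values. With library weights 4 had one, and 0 to 1 with 1 library left out. Of all genes, 2.28%, 2.19% and 1.35%, 2.13%, and 0.00815% to 1.15% had one. A higher one was found for 1 member with rescaled values, 2 with library weights and 0 to 1 with 1 library left out. Of all genes, 4.37%, 6.84% and 0.0163% to 4.83% had a higher one. In the related lists at day 7, the 20 that fell became 4 with no filter, 33 with median-of-ratios scaling, 7 with the block and 2 to 28 with 1 library left out. The 1 that rose became 0 with no filter, 4, 4 and 6 under the 3 scalings, 2 with weights, 0 with the block and 0 to 2 with 1 library left out. Of all genes, 15.3% fell with median-of-ratios scaling, 15.6%, 13% and 19% rose under the 3 scalings and 12.6% rose with weights. The other shares are those given above. At day 15 relative to day 0 their 24 became 15 with no filter, 3 with the block and 7 to 31 with 1 library left out, and the 0 that rose became 8 under each scaling, 4 with weights and 0 to 2 with 1 library left out. At day 15 relative to day 7, library weights gave 1 risen and 2 fallen, where 1.89% of all genes rose and 8.9% fell. For the difference between the weeks, 1, 1 and 1 were higher and 4, 2 and 2 lower under the 3 scalings, 2 higher and 3 lower with weights, and 0 to 1 lower with 1 library left out. The library weights rest mainly on day 15 replicate 6, whose weight was 6.42 against 0.394 to 1.39 in the other 8 libraries. The cause of these shifts was not tested. No called member changed sign in any setting.

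Nothing in the labels says that equal replicate numbers pair animals, and the correlations below cannot settle whether such libraries share anything else. Deviations from the age means of same-numbered libraries correlated at r = 0.003 (5) and 0.032 (6) between day 7 and day 0, 0.099 (6) between day 15 and day 0, and -0.213 (2) and 0.170 (6) between day 15 and day 7, and the block left 2 residual degrees of freedom. Depth is unknown, so the precision of low TPM values cannot be given.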
